A study of Mus musculus with 14 samples.

Results

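Parvalbumin (PV) interneurons of the hippocampus were compared between mice that resisted chronic social defeat stress and mice that were never defeated. The comparison used the 8 of 14 libraries that the labels assign to those groups: 4 from resilient (Res) mice, numbered 3, 5, 7 and 8, and 4 from non-defeated (ND) mice, numbered 1, 6, 9 and 11. All mice carried a Cre-dependent EGFP-L10a allele and PV-Cre, so a green fluorescent ribosomal protein marked the ribosomes of cells with Cre, and translating ribosome affinity purification (TRAP) pulled down the mRNA on them. The mice were male, of C57BL/6 background and 8 to 12 weeks old when testing began. Res mice had been placed with aggressive CD-1 males on 10 days and then kept a social interaction ratio of at least 1, whereas ND mice were housed in pairs behind a divider without contact with CD-1 mice. Both hippocampi of 1 mouse made 1 TRAP sample, so each library stands for 1 mouse. The other 6 libraries, 3 from susceptible (Sus) mice and 3 of total RNA from ND hippocampus before purification (input), entered the model only to estimate the spread and as a reference.

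PV interneurons are fast-spiking GABAergic cells that inhibit the bodies and axon initial segments of many principal neurons and pace network rhythms. Their high firing rates lean on fast potassium channels, dense mitochondria and steady protein synthesis. TRAP reads the mRNA bound to tagged ribosomes, and RNA from untagged cells that sticks to the beads is a known background of the method.

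Each library was deep, with 72098582 to 94726962 assigned reads in ND and 75325264 to 87316567 in Res. Pvalb, which encodes parvalbumin, stood at 1464 ± 134 normalized CPM (counts scaled to the library total after TMM correction) in ND (SD, n = 4) and 1274 ± 55.5 in Res (SD, n = 4), against a mean of 25.4 in the input. Its log2 difference of -0.20 had an unadjusted p of 0.118 in edgeR's quasi-likelihood test, and the libraries of the groups overlapped. Gad1, the main GABA-synthesizing enzyme, differed by 0.11 on the log2 scale (unadjusted p = 0.45 in the same fit), and Rpl10a, whose protein is the one fused to EGFP, by 0.09 (unadjusted p = 0.349). Ahnak, the scaffold protein that the study went on to examine, differed by -0.17 (unadjusted p = 0.543), at 2.83 ± 0.423 CPM in ND and 2.52 ± 0.674 in Res (SD, n = 4 each).

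Libraries differed among themselves in ways that the groups did not follow. The first principal component of the 8 libraries held 31.4% of the variance and placed libraries numbered 1, 3, 5 and 6 on one side (scores of 10.1 to 36.2), libraries 7, 9 and 11 on the other (-39.9 to -23.8) and Res 8 between them at 0.36. Each group has 2 libraries numbered 1 to 6 and 2 numbered 7 to 11, and differences are also given within these number ranges, without a test. Whether the numbers mark an order of handling is not stated by the labels. Tcf7l2, a transcription factor of thalamic neurons, reached 132 CPM in Res 7 against 2.95, 4.91 and 5.02 in Res 3, 5 and 8, and 66.8 and 33.0 CPM in ND 9 and 11 against 3.44 and 3.32 in ND 1 and 6. The summed CPM of the 11 thalamic and other region markers ran from 89.5 to 624 in ND and from 82.0 to 1087 in Res. Without Res 7, 867 genes had an unadjusted p below 0.05, of which 517 were among the 933 found with all libraries.

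In the whole transcriptome, 21298 genes were tested and none had an adjusted p below 0.05 in edgeR's quasi-likelihood test with Benjamini-Hochberg adjustment. The smallest adjusted p was 1. At an unadjusted p below 0.05, which serves below only to name and count genes, 933 genes passed, or 4.38% of those tested. Higher in Res were 472 (2.22% of those tested), and lower were 461 (2.16%). When no gene differs, a share of about 0.05 passes, so the count alone is no sign of change. The shares of 2.22% and 2.16% are those to set beside the counts of each list below. DESeq2 on the same 2 groups found 0 genes after adjustment and 896 at the unadjusted threshold. The likelihood ratio test of edgeR found 920 before adjustment and 4 after it, namely Cav1, Itm2a, Dpep1 and Tdgf1, all higher in Res. Dpep1 and Tdgf1 had means of only 0.089 and 0.313 CPM over all 14 libraries (without TMM scaling), below the 1 CPM asked of the leading genes. Their log2 differences were 4.77 and 1.92. The median log2 difference of all genes was 0.0023, with an interquartile range of -0.12 to 0.12. Of the genes past the unadjusted threshold, 218 differed by over 2-fold, 143 of them higher and 75 lower in Res. The 4 Res libraries lay all above the 4 ND libraries for 276 genes (1.30%) and all below for 224 (1.05%), together 2.35% of genes. For such a gene an exact two-sided permutation test over the 70 splits of 4 against 4 gives 0.0286, the smallest value it can reach. Since the leading genes named below were required not to overlap, that value is no further evidence for them.

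**Figure D1:**
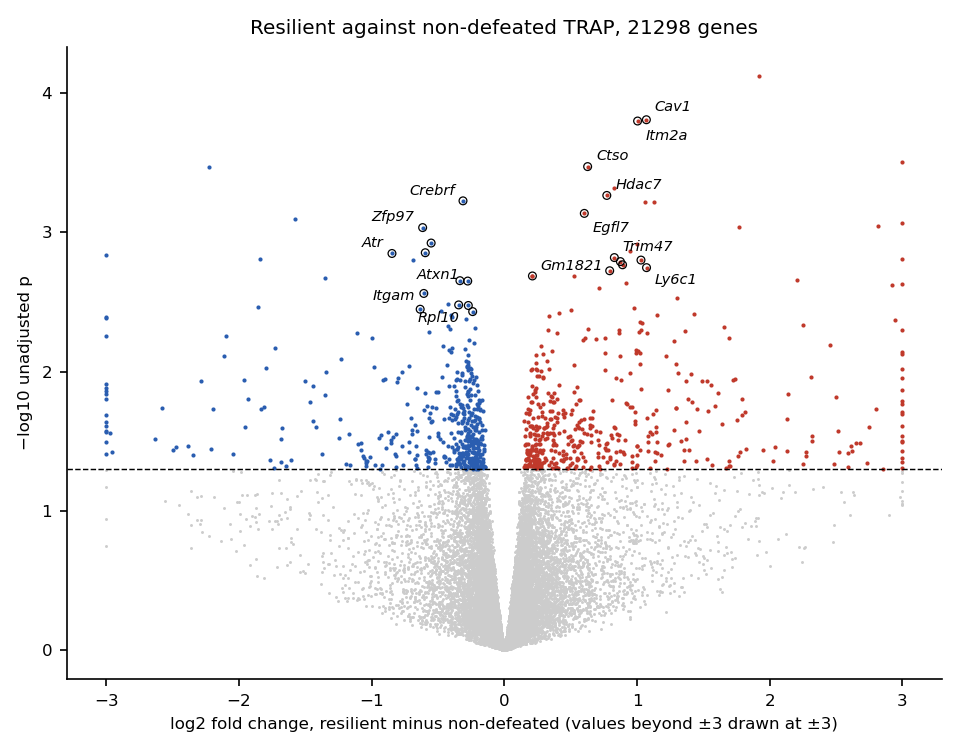
Each point is 1 of the 21298 genes, with the log2 difference of Res minus ND on the x axis and −log10 of the unadjusted edgeR p on the y axis. Red and blue points lie above the dashed line at an unadjusted p of 0.05 (472 higher and 461 lower in Res), and circles mark the 24 genes chosen by smallest p among those whose libraries did not overlap, including Cav1 at 1.07 and Atr at -0.85.

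Of the 12 leading genes higher in Res, Itm2a and Ly6c1 belong to the list of endothelial and mural markers, and Cav1, Egfl7, Eng, Sox18 and Hdac7 are described with them from their known roles in vessels. Cav1 encodes caveolin-1, the coat protein of caveolae, and lies at chr6:17306335-17341452 (mm10, plus strand). It stood at 1.84, 2.39, 2.07 and 1.99 CPM in ND 1, 6, 9 and 11 and at 4.14, 2.73, 4.0 and 6.58 CPM in Res 3, 5, 7 and 8. All Res libraries were above all ND libraries, Res 8 most of all, and the log2 difference was 1.07 ± 0.21 (SE, unadjusted edgeR p of 0.000156), or 0.67 within numbers 1 to 6 and 1.33 within 7 to 11. Itm2a, a membrane protein abundant in brain endothelium, lies at chrX:107397099-107403376 on the minus strand. It measured 3.56, 6.26, 5.29 and 6.22 CPM in the ND libraries and 9.79, 7.47, 11.2 and 14.4 in the Res libraries, in the order given for Cav1. Its log2 difference was 1.0 ± 0.20 (SE, unadjusted edgeR p of 0.000159), with 0.85 within numbers 1 to 6 and 1.14 within 7 to 11.

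Ly6c1, a surface protein of brain endothelial cells, measured 3.47, 4.20, 5.48 and 5.26 CPM in ND and 9.72, 6.16, 6.98 and 15.9 in Res, a log2 difference of 1.07 ± 0.28 (SE). Sox18, a transcription factor of endothelial development, ran from 4.21 to 5.32 CPM in ND and from 5.88 to 12.5 in Res (log2 difference 0.79 ± 0.21, SE). Eng, the TGF-beta co-receptor endoglin, ran from 1.25 to 1.56 CPM in ND and from 1.75 to 3.87 in Res (0.89 ± 0.23, SE). Egfl7, a secreted endothelial factor whose locus also holds the microRNA gene Mir126a, ran from 5.02 to 7.06 CPM in ND and from 8.12 to 12.2 in Res (0.60 ± 0.14, SE). Hdac7, a class IIa histone deacetylase with a role in vessel integrity, ran from 1.66 to 2.05 CPM in ND and from 2.80 to 4.07 in Res (0.77 ± 0.17, SE). In each of these 5 genes Res 8 was the highest of the 8 libraries. Exons of Eng, Egfl7 and Hdac7 overlap those of genes on the opposite strand, Fpgs, Agpat2 and Slc48a1, and the library kit does not mark strand.

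The wider endothelial and mural list gave the same direction with wide scatter. Of its 18 members, all tested, 16 were higher in Res, at a list median of 0.45 against 0.0023 for all genes. Itm2a, Ly6c1, Cldn5 and Rgs5 passed the unadjusted threshold, 4 members or 22.2%, against 2.22% of all genes on the higher side. Itm2a and Ly6c1 were already among the leading genes above, so the list is not separate support for those genes. Cldn5, the tight-junction protein of the blood-brain barrier, measured 2.13, 3.34, 3.25 and 3.07 CPM in ND and 6.67, 2.83, 4.76 and 12 in Res, so that Res 5 lay within the ND range (log2 difference 1.15 ± 0.33, SE). Rgs5, a pericyte gene, differed by 0.35 ± 0.15 (SE), overlapped between groups and lost its call without ND 1 (unadjusted p of 0.11), ND 11 (0.0569) or Res 8 (0.178). Pecam1 and Flt1, 2 other endothelial markers named after their values were seen, differed by 1.19 (unadjusted edgeR p = 0.0969, exact permutation p = 0.229) and 0.55 (0.156 and 0.429) with overlapping libraries. The mean log2 CPM of the list ran from 0.58 to 1.69 in ND and from 1.22 to 2.36 in Res. Its difference was 0.51 within numbers 1 to 6 and 0.56 within 7 to 11. Without Res 8 the list median was 0.19 and 3 members passed, and without Res 5 it was 0.57 and 7 passed. In bulk samples, more cells of a type and more RNA per cell cannot be told apart. The mean Cldn5 level in the input, 1.26 CPM, was below that of either TRAP group, whereas that of Cav1 in the input, 5.05 CPM, was above both.

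Blood and choroid plexus markers were also higher in Res by list median, but not in the same libraries as the vascular genes. Among Res libraries, the blood list was highest in Res 5 (mean log2 CPM of 5.33), where the endothelial and mural list was lowest (1.22). The endothelial and mural list was highest in Res 8 (2.36), and the choroid plexus list was lowest in Res 3 (3.89). All 6 blood cell markers tested were higher in Res, with a median of 0.76, and without Res 5 the median was 0.03. The difference in their mean log2 CPM was 1.27 within numbers 1 to 6 and 0.01 within 7 to 11. Hba-a1, an alpha-globin gene nearly identical to Hba-a2, measured 82.6, 185, 42.7 and 50.8 CPM in Res 3, 5, 7 and 8 against 37.4 to 72.5 in ND. Pglyrp1, a peptidoglycan-binding protein of neutrophils, was the 1 member of the blood list that passed, at 0.323 to 0.655 CPM in ND and 0.932 to 1.45 in Res (log2 difference 1.13 ± 0.26, SE). It did not follow Hba-a1, being lowest of the Res libraries in Res 5 and highest in Res 8. Its input mean, 0.165 CPM, was below both TRAP groups, whereas that of Hba-a1, 271 CPM, was above both. Which cells its reads came from was not tested. Of 10 choroid plexus and ependymal markers 9 were higher, with a median of 0.43. The difference in their mean log2 CPM was -0.15 within numbers 1 to 6 and 0.63 within 7 to 11. Ttr, the transthyretin of choroid plexus, measured 271, 212, 159 and 211 CPM in ND and 146, 362, 363 and 381 in Res, so Res 3 lay below every ND library, and its call was lost without any of 6 libraries (unadjusted p of up to 0.121). The part of these cell types in the differences of other genes was not tested.

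For the leading vascular genes that had an entry in the RefSeq promoter table (GRCm38.p6, 250 bases before the start), the sequence was searched for AGGAAG on either strand, a core that ETS-family factors of endothelium are known to bind. It is shown because these genes are described together above. The 30-base stretches around the first match read as follows on the gene's own strand, with the match in capitals (AGGAAG or its reverse complement CTTCCT).
Itm2a, chrX:107403581-107403610, minus strand: aagCTTCCTtcctgccttgctcttatctga
Egfl7, chr2:26580855-26580884, plus strand: cttgcccagtcaCTTCCTttagagccctca
Eng, chr2:32646531-32646560, plus strand: aagcctgtggcaCTTCCTctactcgcctgg
Ly6c1, chr15:75048772-75048801, minus strand: accttgtctgagAGGAAGtaaggactggtg
No match lay in the window of Cav1, and Sox18 had no entry. The stretch of Hdac7 was not extracted. The letters occurred in 32.3% of the 27018 genes of the table, in 5 of 11 endothelial and mural markers with an entry and in 6 of 8 of the 12 leading higher genes with one. A match is a description of letters and not evidence of binding.

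The other 5 of the 12 leading genes higher in Res are given next. Ctso, the lysosomal protease cathepsin O, measured 3.88, 3.88, 4.06 and 4.77 CPM in ND and 5.36, 7.99, 5.99 and 6.31 in Res, without overlap and with a log2 difference of 0.63 ± 0.13 (SE). Trim47, a tripartite-motif protein, ran from 1.73 to 2.30 CPM in ND and from 3.01 to 4.64 in Res (0.83 ± 0.21, SE). Alx4, a homeobox transcription factor, ran from 0.982 to 1.21 CPM in ND and from 1.63 to 2.45 in Res (0.88 ± 0.23, SE). Gm20412, a processed transcript that overlaps Tgm2 on the opposite strand, differed by 1.03 ± 0.27 (SE), and without strand its reads cannot be told from those of Tgm2. The most abundant of the 12 was Gm1821, a transcribed pseudogene of the ubiquitin gene Ubb, at 3444 ± 178 CPM in ND and 3989 ± 207 in Res (SD, n = 4 each). Its log2 difference was 0.21 ± 0.06 (SE). Ubb itself, looked up after the values were seen, had the same difference and error, at 7082 ± 430 CPM in ND and 8186 ± 367 in Res (SD, n = 4 each). The near-identical copies can share reads, so the 2 are 1 observation rather than 2.

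The 12 leading genes lower in Res were of other kinds, with log2 differences of -0.85 to -0.24 against 0.21 to 1.07 for the higher ones. Crebrf, a regulator that restrains the transcription factor CREB3, lies at chr17:26715650-26776635 on the plus strand. It measured 39.4, 42.7, 39.3 and 40.2 CPM in ND and 31.1, 35.3, 30.4 and 33.4 in Res, with no overlap. Its log2 difference was -0.31 ± 0.07 (SE, unadjusted edgeR p of 0.000595), and -0.31 and -0.32 within the number ranges. Atr, the kinase that signals stalled replication and DNA damage, had the largest log2 difference of the 12, -0.85 ± 0.21 (SE). It measured 1.94, 1.39, 1.66 and 2.23 CPM in ND and 1.12, 1.08, 0.715 and 1.10 in Res, with Res 7 the lowest.

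Zfp97 and Zfp960, zinc finger genes that lie near each other on chromosome 17, had nearly the same values in every library. Zfp97 measured 7.78, 6.13, 7.89 and 8.73 CPM in ND and 3.97, 5.07, 5.89 and 4.98 in Res (log2 difference -0.62 ± 0.15, SE), and Zfp960 differed by -0.60 ± 0.15 (SE). Whether the pair share reads was not tested. Zfp770, another zinc finger gene, ran from 16.9 to 20 CPM in ND and from 12.4 to 16.6 in Res (-0.34 ± 0.10, SE). Tbc1d8b, which carries a Rab GTPase-activating domain, ran from 4.50 to 5.49 CPM in ND and from 2.93 to 3.60 in Res (-0.55 ± 0.14, SE).

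Ephb2, a receptor tyrosine kinase for ephrin-B ligands at synapses, ran from 2.24 to 3.06 CPM in ND and from 1.14 to 1.94 in Res (-0.63 ± 0.18, SE). Atxn1, the polyglutamine protein ataxin-1, measured 29.0, 31.5, 27.8 and 27.8 CPM in ND and 23.1, 24.1, 24.1 and 24.6 in Res, with little scatter in Res (-0.28 ± 0.07, SE). Glcci1, first described as a glucocorticoid-induced transcript, ran from 32.0 to 39.4 CPM in ND and from 25.4 to 29.4 in Res (-0.33 ± 0.09, SE). Amd1, which makes the decarboxylated S-adenosylmethionine used for polyamines, ran from 104 to 112 CPM in ND and from 84.6 to 97.9 in Res (-0.24 ± 0.07, SE). Itgam, the CD11b integrin of microglia and other myeloid cells, ran from 2.68 to 3.76 CPM in ND and from 1.84 to 2.33 in Res (-0.61 ± 0.17, SE). The 14 microglia and macrophage markers, a list without Itgam, had a median of 0.02 with 0 members past the threshold, and Cx3cr1 ran from 0.39 to 2.95 CPM in ND and from 0.719 to 3.08 in Res. Exons of Atr, Glcci1 and Atxn1 overlap those of genes on the opposite strand, and those of Itgam and Trim47 overlap genes on the same strand (Gm49368 and Trim65). All 24 leading genes stayed below an unadjusted p of 0.05 under each of the 18 alternative settings run. They were picked for a small p and separate groups in the same libraries, so this is no further evidence for them.

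**Figure D2:**
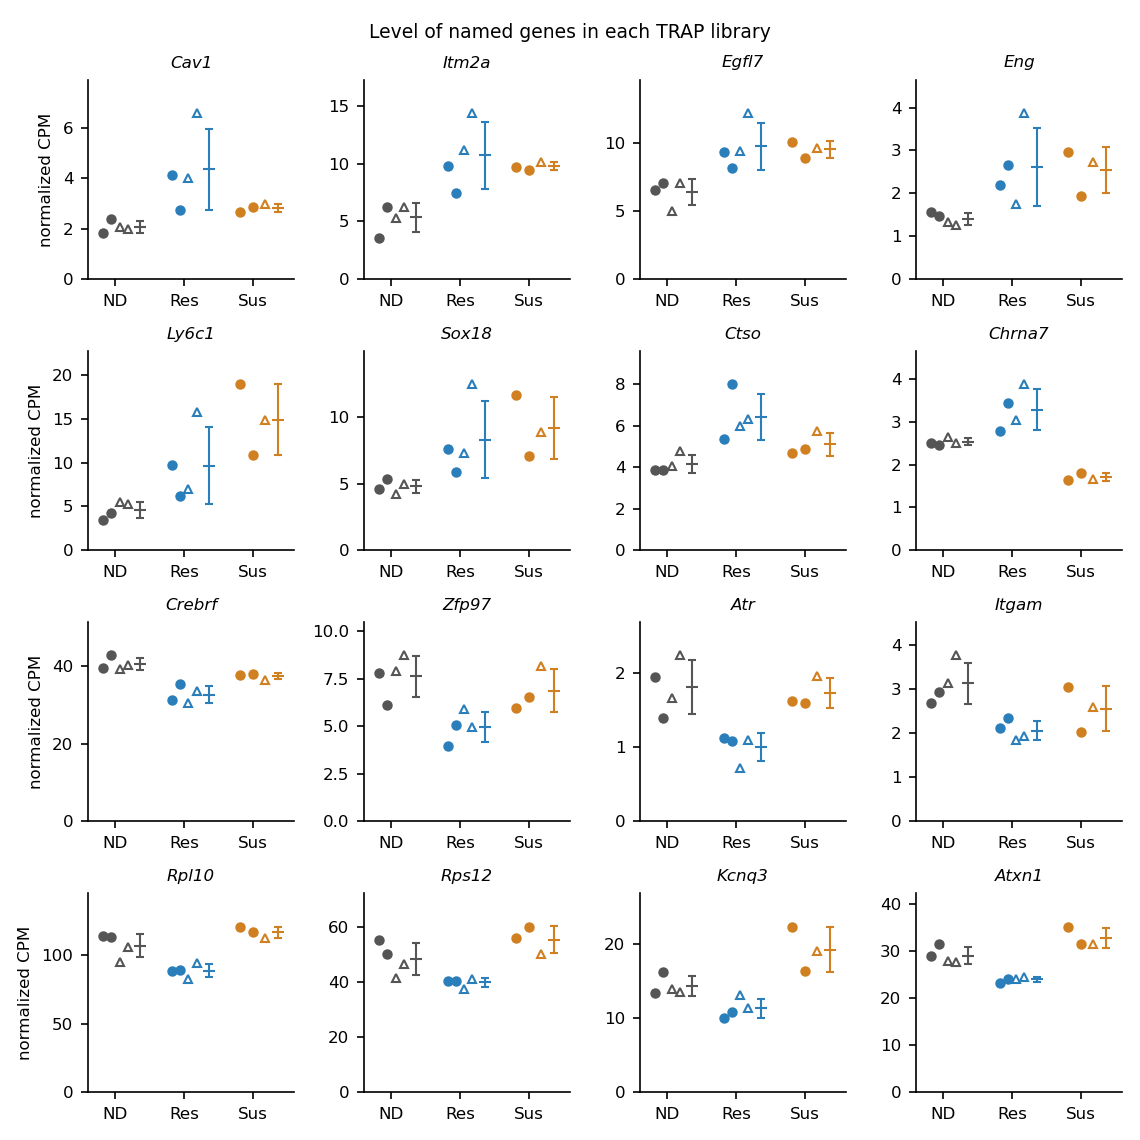
Normalized CPM of 16 named genes in each TRAP library, with filled circles for libraries numbered 1 to 6, open triangles for 7 to 11, and mean ± SD beside each group (ND and Res, 4 libraries each, and Sus, 3). Cav1, Itm2a and Ly6c1 lie higher in all Res than in all ND libraries, Crebrf and Atr lower, and Chrna7 is lowest in Sus.

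Ribosomal protein mRNAs were mostly lower in Res. Of 50 large subunit genes tested, 47 were lower and 15 passed the unadjusted threshold, all lower, and of 32 small subunit genes all 32 were lower and 18 passed, against 2.16% of all genes. The list medians were -0.16 and -0.20. Rpl10, at chrX:74270812-74273135, measured 114, 113, 95.2 and 106 CPM in ND and 88.6, 89.1, 82.8 and 94.2 in Res, and was the only ribosomal gene among the 12 leading lower genes (log2 difference -0.27 ± 0.08, SE). Rps12 measured 55.5, 50.4, 41.5 and 46.8 CPM in ND and 40.6, 40.6, 37.7 and 41.2 in Res (-0.28 ± 0.09, SE), also without overlap. Rps27 measured 81.5, 73.8, 57.1 and 62.6 CPM in ND and 47.5, 51.6, 46.6 and 63.8 in Res, so Res 8 exceeded 2 ND libraries (-0.39 ± 0.12, SE). Rpl27a measured 69.0, 65.2, 52.1 and 52.7 CPM in ND and 49.8, 46.1, 46.2 and 52.4 in Res (-0.30 ± 0.10, SE). In all 4 genes the ND libraries numbered 1 and 6 were the high ones.

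The same libraries stood apart in the list means. The mean log2 CPM of the large subunit list was 7.01 and 6.94 in ND 1 and 6 but 6.62 and 6.68 in ND 9 and 11, and 6.69, 6.62, 6.63 and 6.71 in Res 3, 5, 7 and 8. The difference was therefore -0.32 within numbers 1 to 6 and 0.02 within 7 to 11, and -0.36 and -0.03 for the small subunit. The list levels of the groups overlapped in both cases. Leaving out ND 1 left 3 large and 4 small subunit genes past the threshold on the lower side, and leaving out ND 6 left 3 and 6, whereas without ND 9 there were 31 and 28. Without Res 5 the counts were 5 and 9, without Res 7 they were 6 and 10, and without Res 8 the large subunit count was 7. With TRAP libraries only the counts were 9 and 13, and with the 2 groups only 7 and 11. With the sample number as a covariate they were 34 and 27. An offset for gene length and GC content fitted in each library (described at the end) gave 26 and 25. Translation initiation and elongation factors, 66 genes tested, had a median of -0.02 with 0 past the threshold, and aminoacyl-tRNA synthetases had 18 of 21 higher, a median of 0.08 and also 0 past it. Of 77 mitochondrial ribosomal proteins, 60 were lower, 2 passed and the median was -0.05. These were Mrps14 (-0.19 ± 0.07, SE) and Mrpl47 (-0.19 ± 0.07, SE), the latter lower in all Res libraries at 79.0 to 86.3 CPM against 89.3 to 95.8 in ND. Exons of Mrpl47 overlap those of Actl6a and Ndufb5 on the opposite strand.

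Most ribosomal protein mRNAs begin with a run of pyrimidines that ties their translation to growth signals, and the starts of the named genes are shown for that reason. From 15 bases before to 15 after the RefSeq start (GRCm38.p6), the sequences read as follows, with capitals for a C followed by at least 5 bases that are each C or T, sought from 5 bases before to 12 after the start on the gene's own strand (only the part of a run inside that window is in capitals).
Rpl10, chrX:74270801-74270830, plus strand: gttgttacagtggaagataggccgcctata
Rpl27a, chr7:109519180-109519209, plus strand: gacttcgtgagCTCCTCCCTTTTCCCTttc
Rps27, chr3:90213634-90213663, minus strand: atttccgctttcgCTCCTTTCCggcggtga
Rps12, chr10:23787195-23787224, minus strand: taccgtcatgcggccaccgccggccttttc
A run was found in 15 of 37 large and 13 of 24 small subunit genes with an entry, against 12.8% of all genes of the table and 3 of 33 complex I genes. Neither Rpl10 nor Rps12, the pair of named genes without overlap between groups, had one in the searched window. In Rps12 such a run begins near the end of the window and passes beyond it, so it was not counted. The start that the table gives may not be the start used in these cells.

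Respiratory chain mRNAs encoded in the nucleus showed a smaller difference with the same library pattern. Of 37 complex I genes, 33 were lower and 5 passed (13.5%, against 2.16% of all genes), with a median of -0.15. Of 44 genes for complexes II to V, 38 were lower and 1 passed (2.27%), with a median of -0.14. Ndufs6, a complex I subunit, measured 460, 423, 343 and 380 CPM in ND and 358, 322, 342 and 355 in Res (-0.22 ± 0.09, SE), and Ndufa13 differed by -0.20 ± 0.09 (SE). Cox7c, of cytochrome c oxidase, differed by -0.23 ± 0.10 (SE). The differences in mean log2 CPM of these lists were -0.20 and -0.19 within numbers 1 to 6, and -0.04 and -0.03 within 7 to 11. The calls of Ndufs6, Ndufa13 and Cox7c were each lost without any of ND 1, ND 6, Res 5 and Res 7, at an unadjusted p of up to 0.122, 0.121 and 0.156. The complex I count was 0 when ND 1, ND 6, Res 5 or Res 7 was left out and was 14 without ND 9. It was 1 with TRAP libraries only and 3 with the 2 groups only. With the sample number as a covariate it was 20, and with the number range as one 10. For complexes II to V the count on the lower side was 0 with TRAP libraries only. It was also 0 without any of ND 1, ND 6, Res 5, Res 7 and Res 8. It was 6 without ND 11, 4 without Res 3, 9 without ND 9 and 3 with the 2 groups only. With the sample number as a covariate it was 22, and with the number range 8. Exons of Ndufs6 and Ndufa13 overlap those of Mrpl36 and Tssk6 on the opposite strand.

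The 13 mRNAs encoded by mitochondrial DNA, which are translated inside mitochondria and not by ribosomes with L10a, were all lower in Res, with 0 past the threshold and a median of -0.62. Mt-Co1, named after its values were seen, measured 70, 35.2, 23.0 and 62.3 CPM in ND and 47.6, 35.1, 21.8 and 24.9 in Res, a log2 difference of -0.56 with an unadjusted edgeR p of 0.116. ND 1 and 11 were high and ND 6 and 9 lay among the Res libraries. Their summed CPM ran from 89.9 to 299 in ND and from 78.2 to 185 in Res, against 4007 to 4355 in the input. Without ND 1 the median was -0.31, and without Res 3 it was -0.87 with 8 genes past the threshold. Past it were also 9 genes without ND 9, 5 without ND 6 and 6 with the sample number as a covariate. Enzymes of glycolysis and the citrate cycle went the other way, with 31 of 34 higher, a median of 0.08 and 0 past the threshold, and without ND 1 that median was 0.01.

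**Figure D3:**
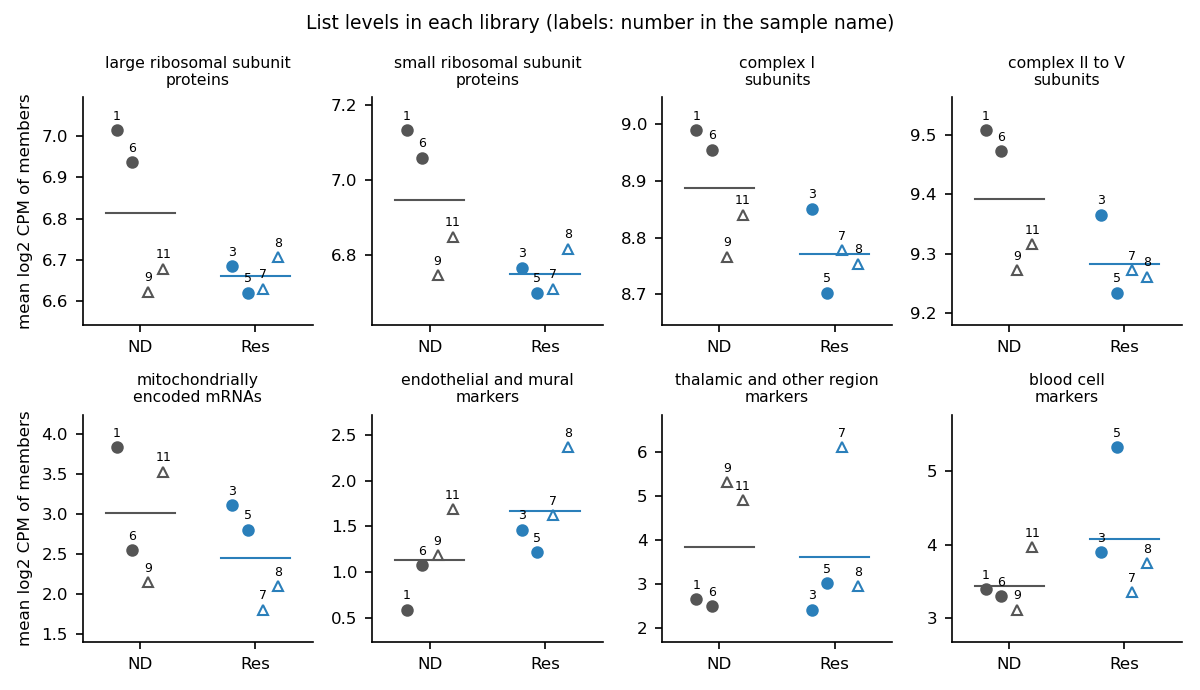
Mean log2 CPM of the members of 8 gene lists in each library, ND on the left and Res on the right, with the library number beside each point, filled circles for numbers 1 to 6, open triangles for 7 to 11 and a line at the group mean. The ribosomal lists are high in ND 1 and 6 alone (7.01 and 6.94 for the large subunit), the thalamic list is high in ND 9, ND 11 and Res 7, and the blood list is highest in Res 5.

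Genes that set the electrical behavior of PV neurons differed little. Among 48 voltage-gated potassium channel genes the median was 0.03 and 2 passed, both lower (4.17%, against 2.16% of all genes). Kcnq3, a subunit of the M-current channel that dampens repetitive firing, measured 13.5, 16.3, 14 and 13.5 CPM in ND and 10.1, 10.9, 13.1 and 11.5 in Res, without overlap (log2 difference -0.33 ± 0.11, SE). Kcnh7, of the ERG family, differed by -0.35 ± 0.13 (SE), with Res 8 inside the ND range, and had an unadjusted edgeR p of 0.0935 with the offset for length and GC. No member passed among 11 sodium channel genes (median -0.05), 24 calcium channel genes (-0.05), 16 HCN and two-pore leak channels (0.02) or 18 ion pumps and chloride cotransporters (0.01).

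Transmitter systems showed single genes at most. Chrna7, the alpha7 nicotinic acetylcholine receptor, measured 2.51, 2.46, 2.65 and 2.51 CPM in ND and 2.79, 3.44, 3.05 and 3.88 in Res, all above ND (0.38 ± 0.14, SE), and was the 1 of 34 serotonin, acetylcholine, opioid and cannabinoid receptors that passed. Without Res 8 its unadjusted edgeR p was 0.0643. Grid1, the delta-1 glutamate receptor family member that bridges to presynaptic cerebellins, measured 3.04, 2.86, 3.0 and 3.02 CPM in ND and 1.98, 2.12, 1.72 and 2.89 in Res (-0.45 ± 0.18, SE), and was the 1 of 30 ionotropic glutamate receptors and partners that passed. Without Res 7 its unadjusted edgeR p was 0.0727, and without Res 3 it was 0.0541. No member passed among 8 genes of GABA synthesis, loading and uptake (median 0.04), 18 GABA receptors (-0.05), 7 metabotropic glutamate receptors (-0.10) or 49 vesicle release genes (0.03). The metabotropic median was -0.45 without Res 7, with 2 genes past the threshold, and 0.02 without ND 11 or without Res 3.

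At the synapse and in peptide signaling the counts were as low. Clstn2, the adhesion protein calsyntenin-2, measured 23.3, 27.7, 31.7 and 30.0 CPM in ND and 35.7, 36.4, 29.5 and 36.6 in Res (0.29 ± 0.11, SE), while 37 of 48 synaptic adhesion genes were lower, with a median of -0.08. Within numbers 1 to 6 Clstn2 differed by 0.51 and within 7 to 11 by 0.09, and without ND 1 its unadjusted edgeR p was 0.0597. Scg2, the precursor of secretoneurin, was the 1 of 18 interneuron neuropeptide genes that passed, at 96.8 to 124 CPM in ND and 114 to 132 in Res (0.19 ± 0.09, SE), a call that was lost without any of 6 libraries (unadjusted p of up to 0.145). Pcdhb21, of the clustered protocadherins, differed by -0.68 ± 0.27 (SE), with Res 7 at 1.84 CPM and the other Res libraries at 0.873 to 0.923, and its reads can be shared with the overlapping Pcdhb22. Its call was lost without ND 9, Res 3, Res 5 or Res 8 (unadjusted p of up to 0.0695). None passed among 22 interneuron transcription factors, 18 perineuronal net genes, 26 neurofilament and axon initial segment genes or 26 neurotrophin and neuregulin genes.

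Genes that respond to activity and stress hormones had a few members past the threshold. Of 30 immediate early genes 21 were lower, with a median of -0.11. Past the threshold were 2, both lower (6.67%, against 2.16% of all genes). On the lower side 0 passed without ND 6, 1 without ND 9, ND 11, Res 3 or Res 7, and 5 without Res 5 or with the offset for length and GC. Fosl2 measured 10.3, 14.8, 13.4 and 14.2 CPM in ND and 10.1, 11.7, 7.74 and 11.1 in Res (-0.37 ± 0.15, SE), and Fosb ran from 1.6 to 2.94 CPM in ND and from 1.08 to 2.12 in Res (-0.52 ± 0.24, SE). Both are subunits of the AP-1 transcription factor, both overlapped between groups, and the calls were lost without any of 3 libraries for Fosl2 and any of 5 for Fosb (unadjusted p of up to 0.0759 and 0.154). Of 27 glucocorticoid receptors and targets 3 passed, all higher (11.1%, against 2.22% of all genes), with a list median of 0.01. None passed without ND 1, without ND 6 or with TRAP libraries only, and with the offset for length and GC 0 passed on the higher side and 2 on the lower. Arrdc2 differed by 0.47 ± 0.21 (SE), or 0.89 within numbers 1 to 6 and 0.10 within 7 to 11, and Fam107a by 0.31 ± 0.14 (SE), or 0.56 and 0.03. The call of Arrdc2 was lost without ND 1, ND 6, Res 5 or Res 7 (unadjusted p of up to 0.124) and that of Fam107a without any of 5 libraries (up to 0.193). Lcn2, the acute-phase protein lipocalin-2, had means of only 0.048 CPM in ND and 0.36 in Res. Per3, a circadian clock gene, ran from 4.21 to 4.77 CPM in ND and from 3.04 to 4.20 in Res and was the 1 of 23 clock genes that passed (-0.35 ± 0.13, SE), a call lost without Res 3 or Res 8 (unadjusted p of 0.0584 and 0.0647).

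Interferon response genes leaned higher. Of 29 tested, 20 were higher and 3 passed, all higher (10.3%, against 2.22% of all genes), with a median of 0.19. The difference in their mean log2 CPM was 0.19 within numbers 1 to 6 and 0.21 within 7 to 11. Oas1a, a sensor of double-stranded RNA, measured 0.125, 0.098, 0.204 and 0.281 CPM in ND and 0.527, 0.239, 0.255 and 0.855 in Res, on 9 to 63 reads a library (1.40 ± 0.48, SE). Bst2, the viral tethering protein tetherin, ran from 0.291 to 0.809 CPM in ND and from 0.796 to 1.51 in Res (0.84 ± 0.34, SE), and Isg15, a ubiquitin-like modifier, differed by 0.66. The call of Bst2 was also lost without ND 9 or Res 7. Without Res 8, which was high in this list as in the vascular genes, 0 members passed and the median was 0.13.

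Housekeeping classes gave scattered members. Hspb1, a small heat shock protein, was the 1 of 39 chaperones that passed, at 6.79 to 8.63 CPM in ND and 8.43 to 15.9 in Res (0.50 ± 0.19, SE), and its unadjusted edgeR p was 0.112 without Res 8 and 0.056 without ND 9. Psmd10 was the 1 of 39 proteasome genes, at 39.3 to 43.2 CPM in ND and 34.6 to 38.9 in Res (-0.17 ± 0.07, SE). Hnrnpa3 and Hnrnpa0, RNA-binding proteins of splicing, differed by -0.19 ± 0.07 and -0.31 ± 0.12 (SE), out of 31 genes with a median of 0.01. Ino80, the ATPase of a chromatin remodeling complex, differed by -0.32 ± 0.13 (SE) and Setd5 by -0.21 ± 0.10 (SE), and 39 of 51 genes of that list were lower with a median of -0.11. That median was -0.0027 without Res 3, and -0.19 without Res 5, when 9 genes passed on the lower side in place of 2. Rab9, of endosome-to-Golgi transport, differed by -0.21 ± 0.08 (SE). Of these, the calls of Psmd10, Hnrnpa0 and Ino80 were lost without any of 4 libraries (unadjusted p of up to 0.104, 0.0774 and 0.118), that of Setd5 without any of 6 (up to 0.152) and that of Hnrnpa3 without ND 6 (0.055). None passed among 26 antioxidant, 22 cholesterol synthesis or 31 unfolded protein and integrated stress genes.

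The 374 genes named Zfp, a large family of mostly DNA-binding zinc finger proteins, had 8 members past the threshold on the higher side and 21 on the lower (2.14% and 5.61%, against 2.22% and 2.16% of all genes), with a median of -0.04. Besides the genes above, Zfp982 ran from 0.547 to 0.888 CPM in ND and from 0.885 to 1.84 in Res (0.76 ± 0.25, SE), with Res 5 inside the ND range, and an unadjusted p of 0.0541 without Res 3. Zfp978 had 2 to 14 reads in a library, too few to describe its level. Many of these genes have near copies, and counts can be split between them.

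**Figure D4:**
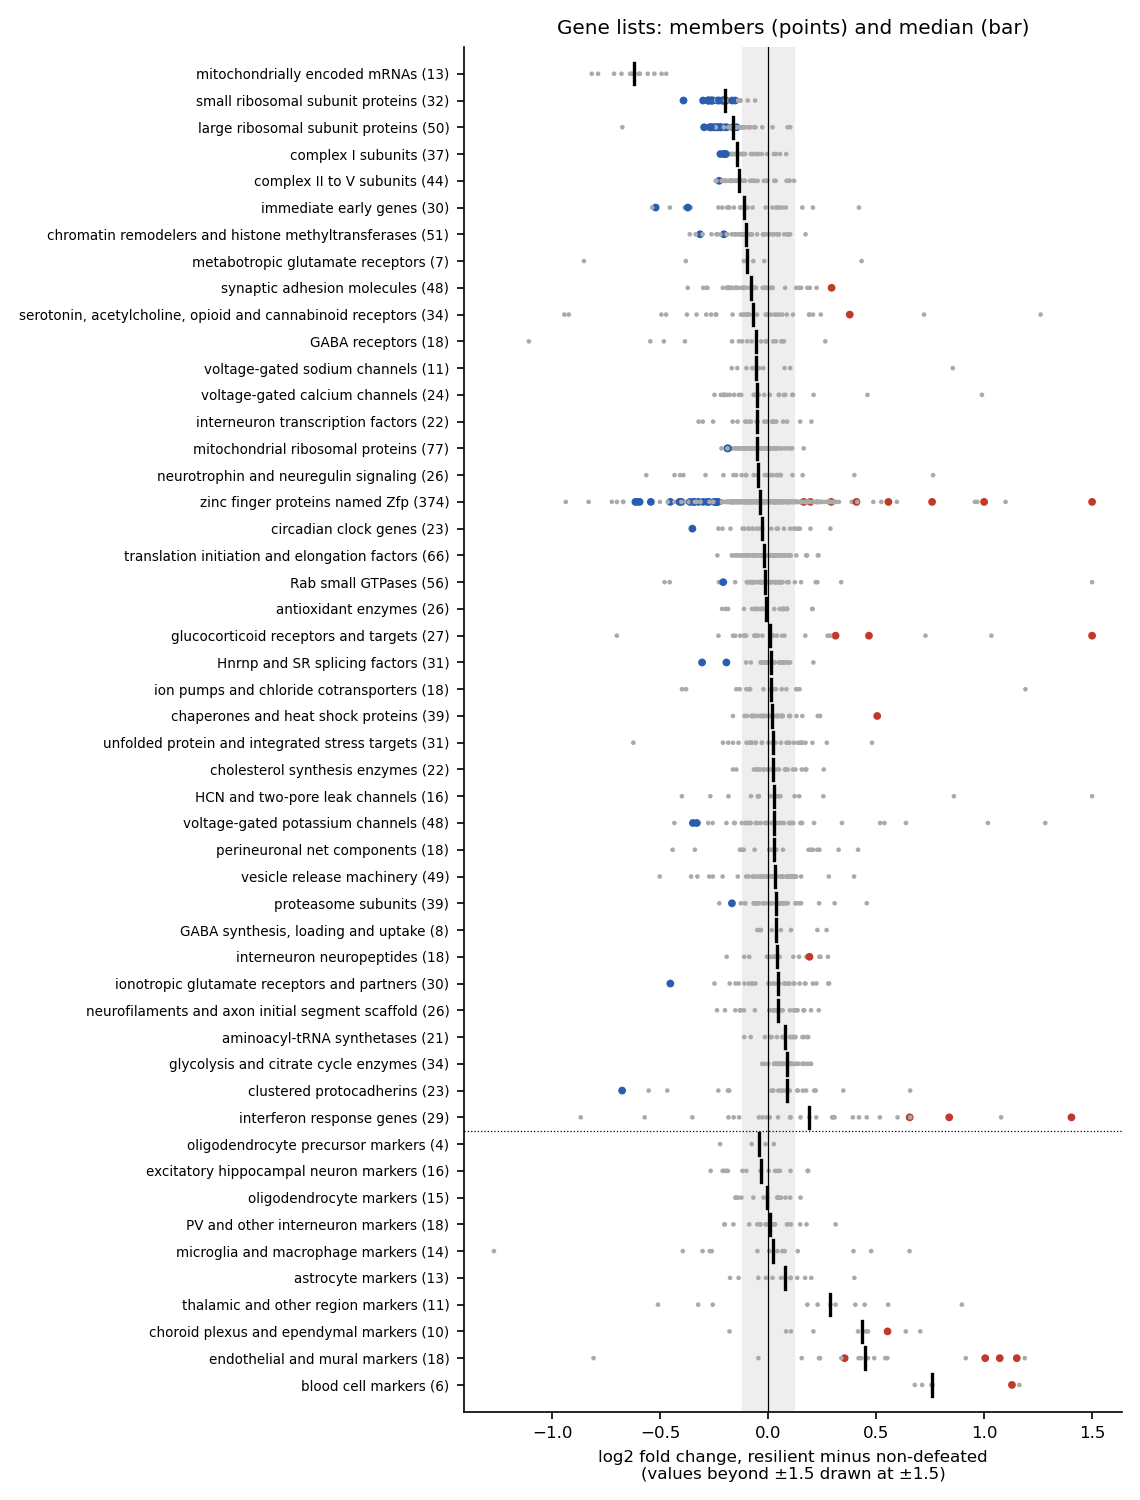
Log2 difference of Res minus ND for each tested member (points) of 50 gene lists and the list median (black bar), functional lists above the dotted line and cell type markers below it, with the number tested in brackets. Red and blue mark members at an unadjusted p below 0.05, grey shading spans the interquartile range of all genes (-0.12 to 0.12), and the medians run from -0.62 for mitochondrially encoded mRNAs to 0.76 for blood cell markers.

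Base composition went along with the direction of the differences. Among 20866 genes with a known exon sequence, split in 5 equal bins by GC content, the share past the threshold on the higher side climbed from 1.05% in the lowest bin to 3.86% in the highest, and the share on the lower side dropped from 3.81% to 1.13%. The bins at the ends had medians of -0.05 and 0.05. In the lowest bin the median deviation in log2 CPM from the ND mean was -0.051 to -0.031 in the Res libraries and -0.018 to 0.040 in the ND libraries. With an offset for gene length and GC fitted in each library, 890 genes passed, of which 638 were shared with the 933, and the share of them that was higher was 38.9% against 50.6% without the offset. Past the threshold, 2474 annotated pseudogenes had 22 members higher (0.889%) and 66 lower (2.67%). The 15883 protein-coding genes had 411 (2.59%) and 325 (2.05%), against 2.22% and 2.16% of all genes. The bin of shortest genes, of 5 by exon length, had 47 higher and 123 lower (1.13% and 2.95% of 4175). The ribosomal and endothelial lists had medians of -0.20 (large subunit), -0.23 (small subunit) and 0.44 with the offset. Whether composition is a part of other differences was not tested beyond this.

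**Figure D5:**
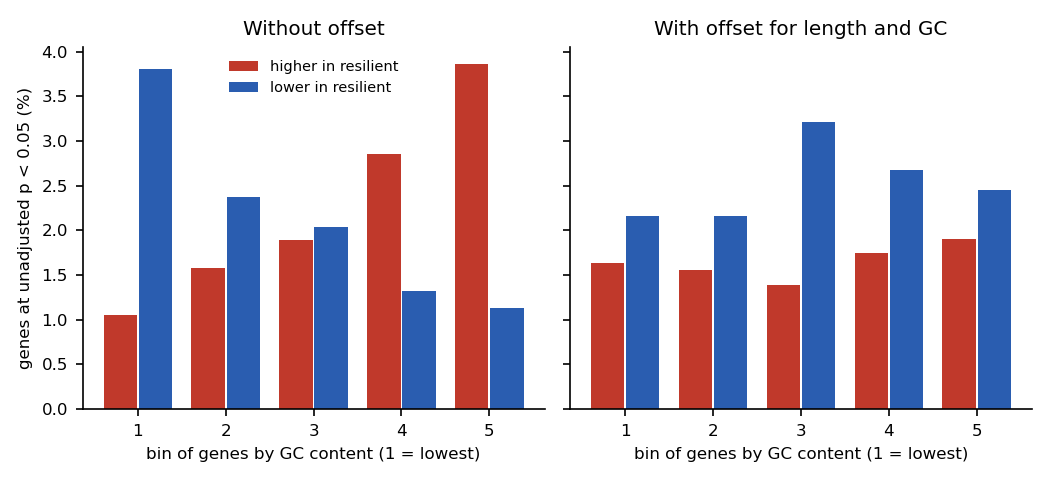
Percentage of genes at an unadjusted p below 0.05, higher (red) and lower (blue) in Res, in each of 5 bins of genes by exon GC content, without (left) and with (right) an offset for length and GC. Without the offset the higher share climbs from 1.05% to 3.86% and the lower share drops from 3.81% to 1.13%, and with it the higher share runs from 1.39% to 1.90%.

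Set beside Sus libraries in the same fit, the named genes fell into different patterns. The contrasts share libraries, so their values are given side by side and not counted as support for each other. In Sus against ND, 13.3% of genes had an unadjusted p below 0.05, and in Res against Sus 20.9%. Itm2a (Sus mean 9.77 CPM, Res minus Sus 0.13) and Egfl7 (9.51 CPM, 0.03) were near the Res level in Sus. Cav1 was at 2.82 CPM in Sus (Res minus Sus 0.63, adjusted p = 0.14 in edgeR), Ly6c1 at 14.9 CPM (-0.62, adjusted p = 0.243 in edgeR) and Rgs5 at 12.2 CPM (-0.45, adjusted p = 0.139 in edgeR). Some other genes higher in Res differed more from ND in Sus. Sus minus ND was 2.51 for Hba-a1 and 1.74 for Pglyrp1 (adjusted edgeR p of 0.0475 for each). It was 1.62 for Bst2, 1.32 for Cldn5 and 1.13 for Ttr, at adjusted edgeR p of 0.127, 0.179 and 0.144. Differences from ND were smaller in Sus than in Res for Cav1 (0.44), Ctso (0.30) and Trim47 (0.18). Kcnq3 was highest in Sus at 19.3 ± 3.04 CPM (SD, n = 3), 0.43 above ND, and Res minus Sus was -0.76 with an adjusted edgeR p of 0.0225. Chrna7 was lowest in Sus at 1.71 ± 0.0936 CPM (SD, n = 3), with a Sus minus ND of -0.57, and Res minus Sus was 0.95 with an adjusted edgeR p of 0.0227. Hnrnpa3, at 97.7 ± 7.84 CPM in Sus (SD, n = 3), gave a Res minus Sus of -0.61 with an adjusted edgeR p of 0.00903. Atxn1 (-0.45, adjusted p = 0.0267 in edgeR) and Rpl10 (-0.40, adjusted p = 0.0389 in edgeR) also stood higher in Sus than in Res. Crebrf was at 37.3 CPM in Sus, between the other groups, and Res minus Sus was -0.20 with an adjusted edgeR p of 0.163.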

How the data were processed

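The deposited table holds whole-number counts of reads per Ensembl gene for 14 libraries, made by the authors. RNA was amplified with a SMART-Seq v4 kit and made into libraries with Nextera XT, which keeps no strand, and sequenced as single reads. Per the submitters' processing notes, reads were aligned to mm10 with STAR (version 2.5.3a) and counted with HTSeq. The study's methods name another STAR version and trimming with fastp. The gene annotation is not given in the sources used here. Symbols and positions came from GENCODE M21 (mm10), by gene ID, for 37693 of 39017 IDs.

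Counts were fitted with edgeR 4.0.16 in R 4.3.3 (TMM scaling, filterByExpr, glmQLFit and glmQLFTest) in 1 model of 4 groups over all 14 libraries, with the contrast Res minus ND and Benjamini-Hochberg adjustment over 21298 genes. The model was tested on simulated data. CPM are normalized by TMM, and list levels are means of log2 CPM with a prior count of 2. Library totals ran from 64110214 to 94726962 over all libraries. Replicates of a group differed beyond counting noise. Named genes were the 12 per direction with the smallest unadjusted p among those with a symbol, a mean of at least 1 CPM, p below 0.05 and no overlap between the groups, then the 2 with the smallest p per direction in each functional list, Pvalb, Gad1, Ahnak and Rpl10a, marker genes below 0.05 and the first marker of each list. Ubb, Pecam1, Flt1 and mt-Co1 were added after their values were seen. The comparison and the 50 lists were chosen with earlier results of these data known. Alternatives were the likelihood ratio test, DESeq2 1.42.0, other size factors and filters, other sets of libraries, the sample number as a covariate, an offset for length and GC, and each library left out. Groups came from the labels. The edgeR p-values of the main fit rest on the spread between libraries within all 4 groups. The Sus and input libraries enter it, not the compared mice alone.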

Additional observations from a re-analysis of the deposited data

Results flagged for a closer look

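In 16 of the 248 groups of 4 libraries looked at, 1 library stood far from the other 3 by Dixon's test of the gap against the range, where chance alone flags about 1 in 20. Among genes in Res, these were Res 7 for Tcf7l2 (132 CPM), Atr (0.715), Clstn2 (29.5) and Pcdhb21 (1.84), Res 3 for Ephb2 (1.14) and Ttr (146), and Res 5 for Rab9 (33.9). Among genes in ND, they were ND 6 for Glcci1 (39.4 CPM) and Kcnq3 (16.3), and ND 9 for Pvalb (1265) and Zfp978 (0.0583). Among lists in Res, given as mean log2 CPM, they were Res 3 for proteasome subunits (6.63), ion pumps and chloride cotransporters (4.42) and choroid plexus and ependymal markers (3.89), Res 7 for thalamic and other region markers (6.12), and Res 8 for interferon response genes (1.82).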

How the results depend on the processing

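The count of genes with an adjusted p below 0.05 was 0 under every alternative, with a range of 0 to 0 when 1 library was left out, except 4 under edgeR's likelihood ratio test. Genes at an unadjusted p below 0.05 numbered 472 higher and 461 lower. With TRAP libraries only, so without the input, they were 291 and 299, and with the 2 groups only 347 and 309. With the sample number as a covariate they were 726 and 824. With 1 library left out they ran from 362 to 720 higher and from 280 to 817 lower, the highest counts without ND 9, the lowest higher count without Res 8 and the lowest lower count without ND 1. The cause of these moves was not tested. Of 60 named genes past the threshold, 35 stayed past it in every setting run, and over all 1073 values 944 did, 129 did not and 0 changed sign. Signs changed only in markers that did not pass with all libraries. Without 1 library, the log2 difference ran from -0.126 to 0.185 for Slc17a7 (below 0 without ND 1, Res 5 or Res 7), from -2.63 to 1.45 for Tcf7l2 (below 0 without Res 7 alone, at an unadjusted p of 0.0279), from -0.561 to 0.218 for Mbp, from -0.499 to 0.0616 for Pdgfra and from -0.401 to 0.219 for Cx3cr1. With the offset for length and GC, Slc17a7 was at -0.0369. With the sample number as a covariate Cx3cr1 was at 0.488, and with the number range (1 to 6 or 7 to 11) at 0.0732. No paired analysis was possible because the groups share no sample numbers. With 4 mice a group and no gene past the adjusted threshold, the values describe these libraries, and low-level genes such as Oas1a rest on few reads.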
